A study of Danio rerio with 2 samples.

Results

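The keratin genes of the zebrafish blastula are described here in embryos that had received a phf14 morpholino (phf14 MO) and in embryos that had received a standard morpholino (standard MO). The members are the listed genes whose symbol starts with krt and whose expression value averages at least 1 over the libraries, which gives 10 genes of 4591 listed. Every row with such a symbol passed that mean, so no keratin row lies just outside it, and the lowest one inside is krt1-c5, at 1.56 in the phf14 MO and 1.43 in the standard MO library. No member is a keratinocyte associated protein gene (krtcap), which the same letters would also have taken in.

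Keratins are the intermediate filament proteins of epithelial cells. They assemble as obligate pairs of an acidic type I and a basic type II chain, and the filaments run between desmosomes and give the cell sheet its mechanical strength. In the zebrafish blastula they are known as products of the enveloping layer, the flat outer epithelium that encloses the deep cells, differentiates first and spreads over the yolk during epiboly. The deep cells, which form the embryo proper, and the yolk syncytial layer under them are the other main compartments of the embryo at this time.

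The phf14 group is 1 library from Tuebingen embryos that received 5 ng of phf14 morpholino at the 1-cell stage and were collected whole at 4.7 h after fertilization. The standard group is 1 library from embryos of the same strain, age and dose that received a standard control morpholino. Morpholinos are antisense oligomers used in zebrafish to stop a chosen transcript from being translated or spliced, and PHF14 is a nuclear protein with a PZP domain that recognises histone H3. The series addresses its part in the activation of the zygotic genome. The labels name no mutant allele and the number of embryos behind a library was not given in the sources used here. Knockdown cannot be checked from these values. The phf14 transcript was not analysed here, and RNA values do not measure a block of translation. With 1 library per group there is no replicate error, no p-value is given, and every difference below is a difference between these 2 libraries.

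The values are a normalised expression signal of unstated scale, and the sequencing depth behind them is unknown. They sum to 71136 in the phf14 MO library and 75675 in the standard MO library. Whether the authors divided by transcript length is not stated, so levels of different keratins are given as deposited and their order is not an order of transcript numbers; a ratio of the same gene between libraries is unaffected. The log2 ratio is log2 of (value + 1) in the phf14 MO library minus the same in the standard MO library, and the background is formed by 3524 genes whose mean reaches 1. Shares of all genes given below refer to these. Genes that are not listed, among them some members of the gene lists used below, do not enter the background, the totals or any scaling between libraries. Since whole embryos were sequenced, fewer enveloping layer cells and less keratin RNA per cell cannot be told apart.

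Of the 10 keratins 8 were lower and 2 higher in the phf14 MO library, where 37.2% of all genes were lower and 62.3% higher. The summed keratin signal was 2378 in the phf14 MO library and 2931 in the standard MO library, a ratio of 0.811, which made up 3.34% of the table total in the phf14 MO library and 3.87% in the standard MO library. The 7 keratins with a mean of at least 10 were all lower, with ratios from 0.755 to 0.880, and they held 99.4% of the keratin signal in the phf14 MO library and 99.6% in the standard MO library. Of the 3 keratins with lower means 1 was lower and 2 were higher. Their ratios were 0.906 for krt91, 1.09 for krt1-c5 and 1.14 for krt96. The cut at a mean of 10 was not planned and lies just above krt96, whose mean was 8.38. At a mean of at least 5, 7 of 8 keratins were lower, against 43.6% of the genes past that mean. The median log2 ratio of the 10 genes was -0.28, against 0.11 over all genes.

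**Figure D1:**
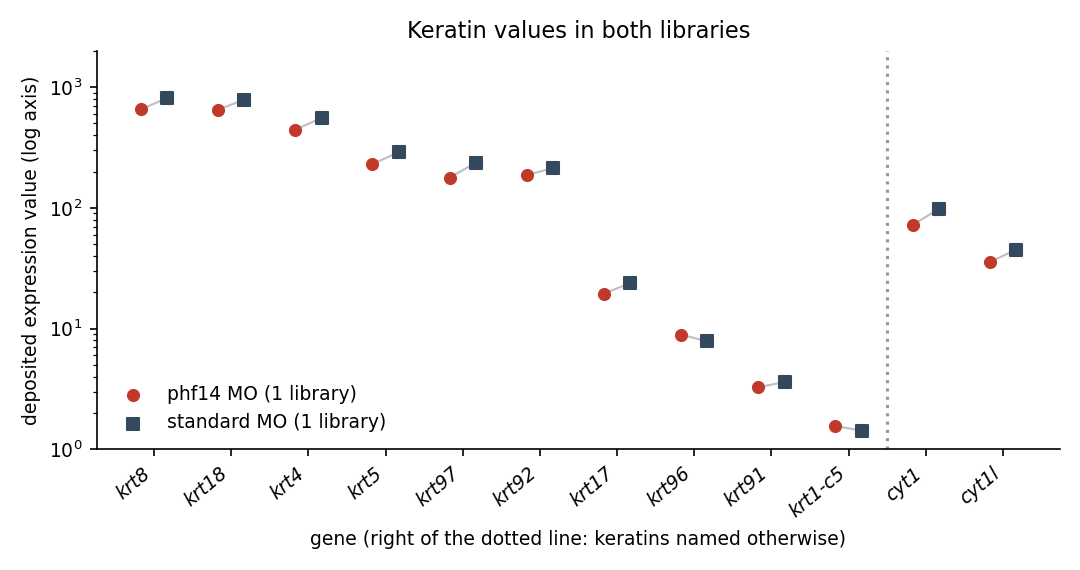
Deposited expression value (log axis) of each keratin in the phf14 MO library (red circles) and the standard MO library (dark squares), 1 library each; cyt1 and cyt1l, right of the dotted line, are keratin genes whose symbols do not start with krt. The 7 keratins on the left are lower in the phf14 MO library, with ratios from 0.755 to 0.880, whereas krt96 and krt1-c5 are higher there.

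The pair krt8 and krt18 are the keratins of simple epithelia, krt8 being the type II and krt18 the type I chain. krt8 (ENSDARG00000058358) was at 655.12 in the phf14 MO library and 811.16 in the standard MO library, a log2 ratio of -0.31. krt18 (ENSDARG00000018404, krt18a.1 in the reference names) was at 650.22 in the phf14 MO library and 788.15 in the standard MO library, a log2 ratio of -0.28. Both partners were thus lower to nearly the same degree: the krt8 to krt18 ratio was 1.01 in the phf14 MO library and 1.03 in the standard MO library. In the RefSeq gene order krt18a.1 is followed by its paralog krt18a.2, which was not analysed here, and the authors' handling of reads shared by such copies was not given in the sources used here.

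Both krt4 and krt5, which are also type II genes, gave almost the same ratio as krt8. krt4 (ENSDARG00000017624), whose promoter is widely used to drive transgenes in the zebrafish surface epithelium, was at 442.82 in the phf14 MO library and 557.25 in the standard MO library (log2 ratio -0.33). krt5 (ENSDARG00000058371) was at 231.04 in the phf14 MO library and 288.47 in the standard MO library (-0.32). These 3 type II genes together summed to a ratio of 0.802. Their log2 ratios had an SD across genes of 0.01, which is a spread between genes and not a replicate error. The type of krt91, krt92, krt96, krt97 and krt1-c5 was not assigned here, so the 3 genes need not be all type II members.

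krt97 and krt92 marked the ends of the range of log2 ratios among the 7 members with a mean of at least 10. krt97 (ENSDARG00000000212) was at 178.37 in the phf14 MO library and 236.33 in the standard MO library. Its log2 ratio of -0.40 was the lowest of the 10 members. krt92 (ENSDARG00000036834) was at 187.44 in the phf14 MO library and 213.07 in the standard MO library (-0.18), the smallest log2 difference among those 7 members. They accordingly changed places in the order of values: krt92 lay above krt97 in the phf14 MO library and below it in the standard MO library, with a krt92 to krt97 ratio of 1.05 in the phf14 MO library and 0.902 in the standard MO library. This was the 1 pair, of 45 pairs among the 10 genes, whose order differed between the libraries, and without replicates it cannot be said whether their values differ beyond the error in either library.

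krt17 (ENSDARG00000094041), a type I keratin known in mammals from epithelia under stress or repair, was much lower in value than these genes but had a like ratio. It was at 19.49 in the phf14 MO library and 23.84 in the standard MO library (log2 ratio -0.28). The keratins with the lowest values did not all share the direction. krt96 (ENSDARG00000095147) was at 8.93 in the phf14 MO library and 7.83 in the standard MO library, a log2 ratio of 0.17 that put it alone above the median gene. krt91 (ENSDARG00000036830) was at 3.27 in the phf14 MO library and 3.61 in the standard MO library (-0.11). krt1-c5 (ENSDARG00000026979) was at 1.56 in the phf14 MO library and 1.43 in the standard MO library (0.08), a sign that turned to -0.034 after centring on the median gene, which sets the median log2 ratio of all genes to 0. It was -0.0098 with a trimmed mean factor, which scales the libraries to each other by the mean ratio of the genes left after trimming extremes. In these 3 genes the difference between libraries was at most 1.10 units of the deposited value, and the depth that would show its counting error is unknown.

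At least 20% lower in (value + 1), a log2 ratio of -0.322 or less, were 2 of the 10 keratins, krt4 and krt97, against 11.0% of all genes. No keratin was higher by the same factor, against 24.2% of all genes, and none was 1.5-fold or 2-fold lower, against 2.87% and 0.482%. krt5 (-0.319) and krt8 (-0.308) narrowly missed the line, so the count turned on small amounts. Scaled so that the median gene is level, it was 6 of 10, against 18.5% of all genes. With the trimmed mean factor it was 7 of 10, against 19.3%. The rescaled shares of the most abundant decile, where 6 of the keratins lie, were not computed. As deposited, 19.5% of that decile passed the line, and the lower quartile of its log2 ratios was -0.28. The rescaled counts are thus not set against genes of like level.

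Level moved with the ratio in these tables. The 6 keratins from krt8 to krt92 are in the most abundant decile of genes, where 72.8% of 353 genes were lower in the phf14 MO library, 19.5% at least 20% lower, and the median log2 ratio was -0.15, while the medians of the other deciles lay above 0. Within that decile, 12.5% of genes had a lower log2 ratio than krt97, 17.3% than krt4, 19.8% than krt5, 21.0% than krt8, 25.5% than krt18 and 45.0% than krt92. In a narrower window, chosen after seeing the data, of means between 100 and 1000, the 6 keratins had a median of -0.31, against -0.18 for the 90 other genes, of which 85.6% were lower and 20.0% at least 20% lower. That all 6 were lower is therefore close to what genes of such values showed in general, whereas their median was further down and 21.1% of those genes lay below it. The part of the level trend in the keratin values was not tested. krt17, in the next decile, was 0.35 below that decile's median of 0.07, and krt91 was 0.29 below the median of its own decile, while krt96 (0.02 above) and krt1-c5 (0.07 below) lay near theirs.

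**Figure D2:**
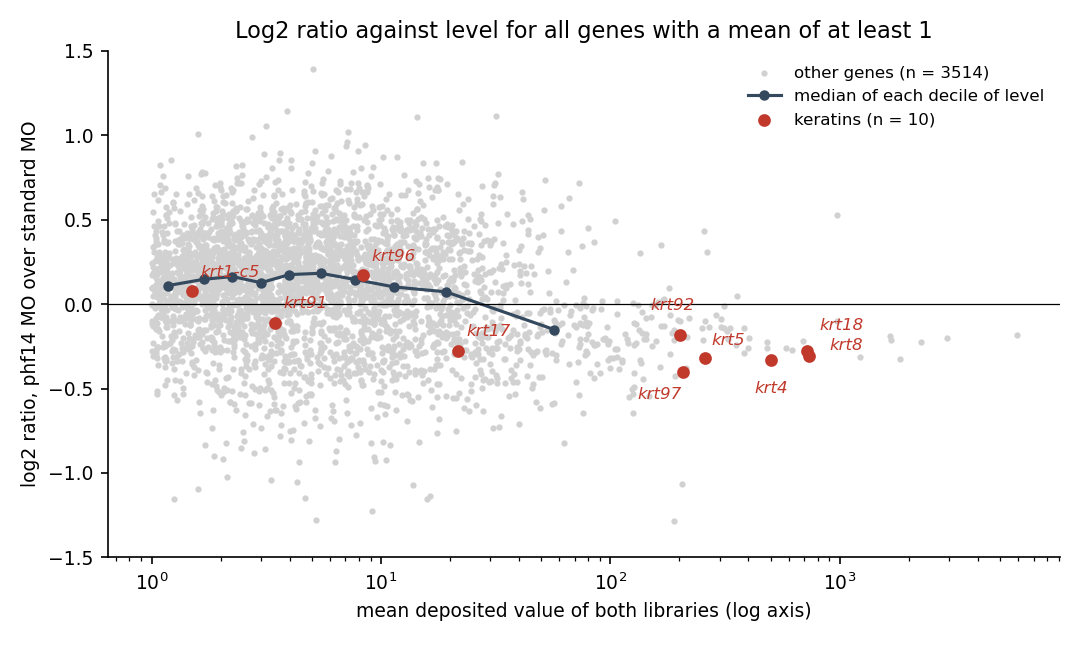
Log2 ratio of the phf14 MO over the standard MO library against the mean deposited value (log axis) for genes with a mean of at least 1, with the keratins in red and the median of each decile of level as a line; 9 genes lie outside the plotted range. The decile medians are above 0 except in the most abundant decile (-0.15), and the 6 most abundant keratins lie between -0.40 and -0.18.

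The abundant keratins also lay close together. The 6 in the most abundant decile had an SD of log2 ratios of 0.07, against 0.31 for the 347 other genes of that decile, and 110 of those genes fell in the keratin range from -0.40 to -0.18. For the 90 other genes with means between 100 and 1000 the SD was 0.26. The makeup of the keratin signal accordingly stayed similar: krt8 held 27.5% of it in the phf14 MO library and 27.7% in the standard MO library, and krt8, krt18 and krt4 together held 73.5% in the phf14 MO library and 73.6% in the standard MO library. Paralogs can share reads, and the part of that in the closeness of their ratios was not tested.

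Keratin genes lie in runs in the RefSeq gene order (assembly GRCz12tu, used for names and order since the build behind the deposited tables was not given in the sources used here). krt5, krt8 and krt18a.1 follow each other directly, and their log2 ratios spanned 0.04. In another run krt92, cyt1l, cyt1, krt17 and krt91 are consecutive, all 5 were lower, and the log2 ratios spanned 0.32. cyt1 and cyt1l are type I keratins of the surface epithelium that the symbol rule leaves out. cyt1 was at 72.20 in the phf14 MO library and 97.98 in the standard MO library (-0.44), and cyt1l at 35.59 in the phf14 MO library and 44.97 in the standard MO library (-0.33). With them the family had 10 of 12 genes lower, 4 of 12 at least 20% lower and a median of -0.29. The shares over all genes were 37.2% lower and 11.0% at least 20% lower. krt97 and krt96, a further run, were the least alike, with log2 ratios 0.57 apart, -0.40 and 0.17. A further 11 RefSeq symbols of the krt series, among them krt18b, krt93 and krt95, were not analysed here.

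Other genes of the enveloping layer give the setting for the keratins. The list held 30 genes, of which 19 are listed in the deposited data and 18 had a mean of at least 1. The genes cyt1 and cyt1l are among these 18, and without them 16 genes are left. All 16 were lower in the phf14 MO library, with a median log2 ratio of -0.34, and 8 were at least 20% lower. Of all genes 37.2% were lower and 11.0% at least 20% lower. Several of the listed genes, cldnb and cldne among them, are in the most abundant decile. In that decile 72.8% of genes were lower and 19.5% at least 20% lower. The part of the level trend in this list was not tested. The lowest were evpla, which encodes the keratin-binding desmosomal linker envoplakin, at 9.49 in the phf14 MO library and 22.31 in the standard MO library (-1.15), and esrp2, an epithelial splicing regulator gene, at 9.88 in the phf14 MO library and 22.90 in the standard MO library (-1.14). agr1, a secreted protein gene, was at 1.24 in the phf14 MO library and 2.96 in the standard MO library (-0.82). The annexin gene anxa1c was at 1.62 in the phf14 MO library and 3.04 in the standard MO library (-0.62). The values of agr1 and anxa1c are low in both libraries. The claudin genes cldnb (-0.18) and cldne (-0.10) differed least. The most abundant keratins thus lay inside the range of this list, above its lowest members, and no keratin came near the log2 ratios of evpla or esrp2.

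The list of keratin partners and other intermediate filaments held 29 genes, of which 10 are listed in the deposited data and 7 had a mean of at least 1. Of these 7 genes 6 were lower and 3 at least 20% lower, against 37.2% and 11.0% of all genes. evpla, given above, pkp3a, a desmosomal plakophilin gene (9.33 in the phf14 MO library and 13.10 in the standard MO library, -0.45), ppl, the periplakin gene (27.17 in the phf14 MO library and 33.60 in the standard MO library, -0.30), and dspa, a desmoplakin gene (-0.29), are also in the enveloping layer list. eppk1, the epiplakin gene, was at 9.34 in the phf14 MO library and 12.40 in the standard MO library (-0.37). pkp1b had -0.09. vim, whose product vimentin is the intermediate filament of mesenchymal cells, was the single higher gene, at 1.32 in the phf14 MO library and 0.77 in the standard MO library (0.39), both low values.

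Regulators of the outer epithelium and epidermis were lower in 8 of 11 measured cases (9 after centring) and at least 20% lower in 4, with a median of -0.30. As deposited, 37.2% of all genes were lower and 11.0% at least 20% lower. After centring 50.0% of all genes were lower. grhl1, a Grainyhead factor gene of epithelial differentiation, was at 23.84 in the phf14 MO library and 30.12 in the standard MO library (-0.33), and its relative grhl2a had -0.28. cebpa, a C/EBP factor gene, was lowest at 7.80 in the phf14 MO library and 11.61 in the standard MO library (-0.52). The homeobox gene dlx3b followed, at 1.42 in the phf14 MO library and 2.38 in the standard MO library (-0.48). The Hippo pathway coactivator gene wwtr1 came after grhl1, at 0.91 in the phf14 MO library and 1.39 in the standard MO library (-0.32). The values of dlx3b and wwtr1 are low in both libraries. chuk, which encodes the kinase IKK1 of epidermal differentiation, was at 33.06 in the phf14 MO library and 28.64 in the standard MO library (0.20), and tead3b was also higher (0.20).

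Markers of the other compartments show that lower values were not particular to the keratins. All 9 measured yolk syncytial layer genes were lower, 8 of them by at least 20%, with a median of -0.47 and a summed signal of 1456 in the phf14 MO library and 1867 in the standard MO library. Of 15 deep cell mesendoderm genes 13 were lower, 6 of them by at least 20%, with a median of -0.26. Beside both lists, 37.2% of all genes were lower and 11.0% at least 20% lower. Most genes of both lists had values in the range of the most abundant decile. In that decile 72.8% of genes were lower and 19.5% at least 20% lower. The part of the level trend in these lists was not tested. Of 13 oocyte transcripts 11 were higher as deposited, against 62.3% of all genes, with a list median of 0.18 against 0.11 over all genes. After centring, which by its definition leaves 50.0% of all genes lower, 10 of these transcripts were higher. The summed oocyte signal ran the other way, at 1668 in the phf14 MO library and 1861 in the standard MO library. The most abundant oocyte transcript alone held 1551.33 of it in the phf14 MO library and 1769.87 in the standard MO library. The sums thus mostly reflect that gene. The keratin median of -0.28 lay between those of the mesendoderm and the yolk syncytial layer. The part of these markers' differences in the keratin values was not tested.

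**Figure D3:**
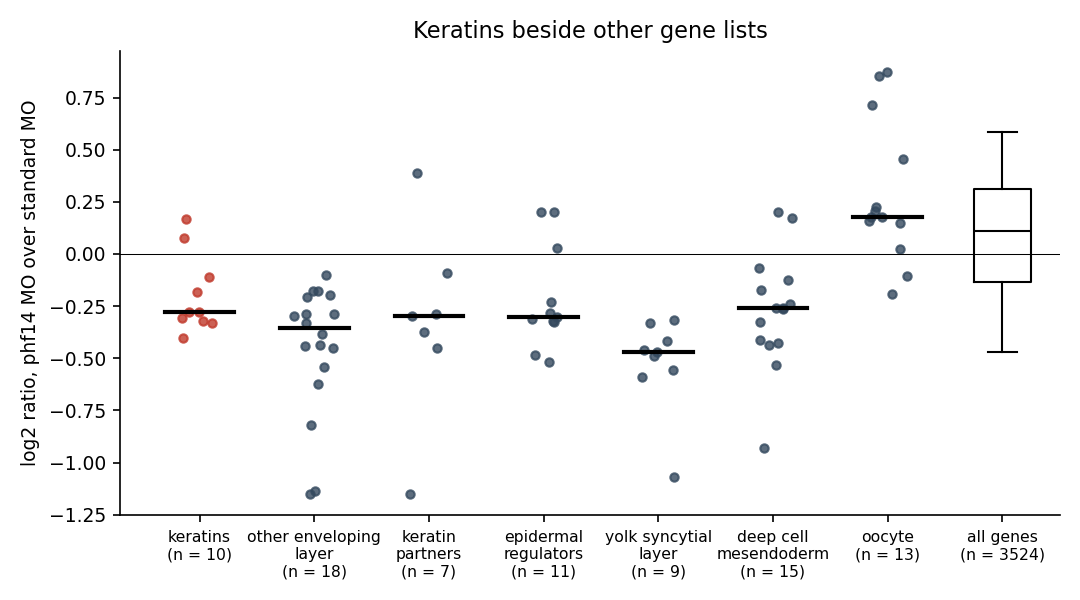
Log2 ratio of the phf14 MO over the standard MO library for each gene (points) of the keratins and 6 other lists, with list medians as bars; the box at the right gives the median, quartiles and 5th to 95th percentiles of all 3524 genes. The keratin median (-0.28) is near those of the keratin partners (-0.30) and mesendoderm (-0.26), and the oocyte median (0.18) is above 0. The enveloping layer column holds 18 genes, with the keratins cyt1 and cyt1l among them, and has a median of -0.36.

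The scaling between libraries moves all keratin ratios together. Centring on the median gene subtracts 0.11 and the trimmed mean factor removes about 0.14. The log2 ratios of the 7 members with a mean of at least 10 then ran from -0.51 to -0.29 and from -0.55 to -0.33. A pseudocount of 0.1 or 5 moved these 7 by at most 0.04.

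**Figure D4:**
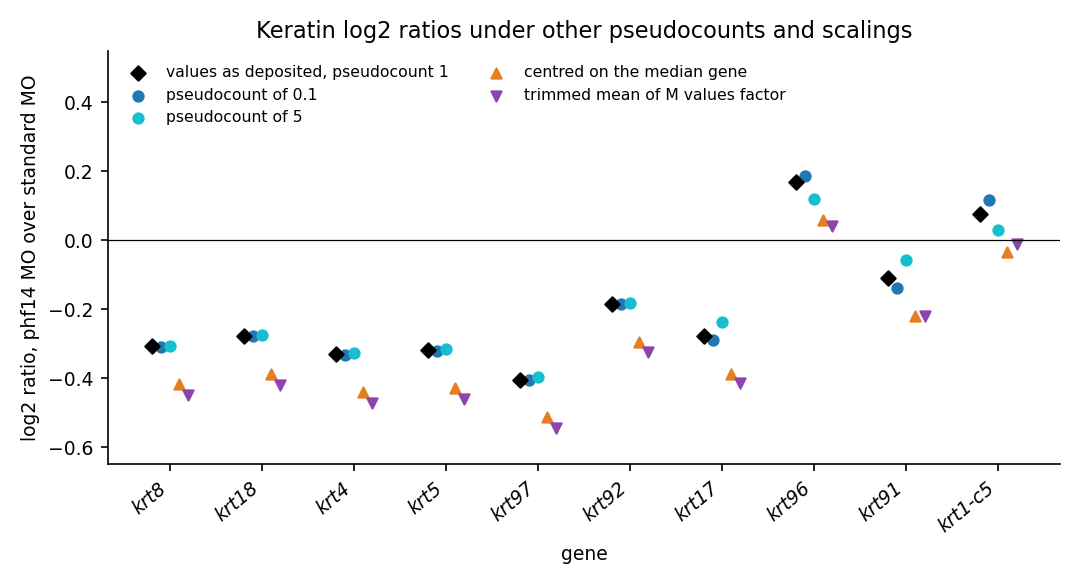
Log2 ratio of each keratin with the values as deposited (black diamonds), with pseudocounts of 0.1 and 5 (blue) and with each scaling between libraries (triangles). The 7 members with a mean of at least 10 are below 0 under each setting, krt96 is above 0 under each, and krt1-c5 falls below 0 with either scaling.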

How the data were processed

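For each library the authors deposited a table of gene identifiers, symbols and a normalised expression signal, called just expression per the file headers. Sequencing libraries came from total RNA and an Illumina TruSeq kit, per the labels' protocols. Aligner, build, annotation, length correction and scaling were not given in the sources used here. Both tables list 4591 genes in common. Log2 ratios used a pseudocount of 1, a mean of at least 1 over both libraries and no count model. They were computed with Python 3.11.15, pandas 2.3.3 and NumPy 2.4.6. The code was run on simulated data with less noise than these libraries and larger differences than those of the keratins. That run cannot tell whether differences of the keratins' size exceed the error here. Genes were cut into 10 equal level bins. Alternatives were pseudocounts of 0.1 and 5, centring, a trimmed mean of M values factor without weights (trimming 30% of ratios and 5% of levels from either end), no filter, a mean of at least 5, and thresholds of 1.5-fold and 2-fold in place of 20% lower. All keratins are named, and of each other list the 4 lowest and 2 highest measured genes by log2 ratio; no gene of the lists for other compartments is named, and grhl2a and dspa were named after their values were seen. The members, lists and folds were chosen with earlier results of these data known. The gene name table held all 10 keratin identifiers, 8 with the same symbol; krt18 is krt18a.1 there, and krt96 is listed by an older name that RefSeq gives as its synonym. No sequence was used.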

Additional observations from a re-analysis of the deposited data

How the results depend on the processing

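The keratin median was negative under every setting run, from -0.42 with the trimmed mean factor to -0.26 with a pseudocount of 5. The mean over members, in place of the median, was -0.20. The log2 ratio of the keratin sums was -0.30 as deposited and without krt8, and -0.31 with cyt1 and cyt1l. With the trimmed mean factor it was -0.44. Scaled by the median ratio of all genes it was -0.45. That ratio was taken without a pseudocount, so this scaling differs from the centring used above. The count of keratins at least 20% lower was 2 of 10 as deposited, 4 with cyt1 and cyt1l (added after seeing the data), and 0 at 1.5-fold or 2-fold. It was 6 after centring, against 18.5% of all genes, and 7 with the trimmed mean factor, against 19.3%. Those 2 rescaled counts were not set against genes of like level. krt1-c5 turned to -0.034 with centring and -0.0098 with the trimmed mean factor. A pseudocount of 5 moved the medians of the epidermal regulators to -0.19 and of the oocyte transcripts to 0.12; the oocyte median was 0.068 with centring and 0.065 with the trimmed mean factor, and the mesendoderm median -0.40 with the trimmed mean factor. Neither leaving out krtcap genes nor removing the filter changed the keratin values, since no such gene or further krt row is listed. No paired analysis was possible because either condition is a single library, which also bars leaving a library out. With depth unknown, the counting error of krt1-c5, krt91 and krt96, the keratins with the lowest values, cannot be given.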

Other observations

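Values are given here for non-keratin genes beside the keratins in the RefSeq order. Within 5 protein-coding genes on either side, 5 non-keratin genes had a mean of at least 1. Of these, 4 were higher in the phf14 MO library, where 62.3% of all genes were higher. After centring on the median gene si:dkeyp-113d7.1 falls below 0, which leaves 3, and 50.0% of all genes were then lower. ptpn4b, near krt97 and krt96, was at 4.80 in the phf14 MO library and 3.33 in the standard MO library (log2 ratio 0.42), and wipf2b, near krt17, was at 6.31 in the phf14 MO library and 4.84 in the standard MO library (0.32). foxp1a, near krt8, had 0.13 and si:dkeyp-113d7.1, near krt92, had 0.09. The exception was the annexin gene anxa1c, near krt1-c5, at 1.62 in the phf14 MO library and 3.04 in the standard MO library (-0.62), while krt1-c5 itself had 0.08. These neighbours were looked up after the keratin values had been seen, and the deposited values of these genes were lower than those of the abundant keratins beside them.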
